A study of Sus scrofa with 21 samples.

Results

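The enterocyte transcription factors described here are 8 genes, HNF4A, HNF4G, GATA4, GATA6, CREB3L3, KLF4, KLF5 and MAF, read in the distal small intestine of 21 piglets. They were chosen by name, each symbol being matched through its Ensembl pig gene identifier, and the expected counts of all its transcripts were added up. All 8 were found among the 18661 genes of the files, and all 8 were among the 13127 genes that passed the filter on low counts. The starch piglets (n = 11) had received a milk replacer to which wheat, and with it starch, had been added, and the control piglets (n = 10) the milk replacer alone. All were Danish Landrace/Yorkshire pigs (Sus scrofa) followed from birth and sampled at 24 to 25 days of age, and each sample is a separate piglet. The tissue was sequenced whole, so each value is a level over all cells of the gut wall. In such samples fewer cells of a type and less RNA per cell cannot be told apart.

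Enterocytes are the absorptive cells of the intestinal villus, and a small set of DNA-binding proteins drives their genes. In the mouse, the paralogous nuclear receptors HNF4A and HNF4G act together to switch on brush-border and lipid-handling genes as cells leave the crypt. The zinc-finger factors GATA4 and GATA6 bind many of the same genes, and in the mouse GATA4 is the factor of the proximal small intestine, whereas GATA6 is found along its whole length. CREB3L3 is anchored in the endoplasmic reticulum, is freed by proteases of the Golgi, and drives apolipoprotein genes in mouse liver and gut. MAF belongs to the large MAF leucine-zipper proteins and is active in villus enterocytes of the mouse, but also in macrophages and T cells. KLF4 and KLF5 are related zinc-finger factors that in the mouse gut lie apart, KLF4 in differentiated cells and goblet cells, KLF5 in dividing crypt cells. SI encodes sucrase-isomaltase, the brush-border enzyme that splits sucrose and starch fragments, and is a known target of GATA4 and CDX2 in mouse and human cells.

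Depth was similar throughout, with 6719264 to 8610458 expected counts per piglet, and the labels give no batch. Of the libraries 3 stood apart, 1 starch and 2 control. On the first principal component of the 500 most variable genes starch 3 lay at -78.6, control 5 at -71.0 and control 8 at -70.5, and the next piglet, starch 4, at -21.3. These 3 piglets had 16.8, 12.7 and 22.2 CPM (the count scaled to library size) of SI, against 290 CPM or more in each of the other 18. Markers of ileal enterocytes were also near their lower end there. FABP6, the ileal bile acid binding protein, read 0.348, 14.9 and 40.3 CPM in them and 234 to 5298 CPM in the other 18 piglets. Epithelial markers not confined to enterocytes went in both directions. KRT18, a keratin, was far higher, at 531, 476 and 896 CPM in the 3 piglets against a median of 26.2 CPM in the other 18. Those named next were less affected. CDH17, a cadherin, read 424, 560 and 644 CPM in the 3 piglets against a median of 869 CPM in the other 18. TJP3, a junction protein, read 49.7, 43.6 and 58.8 CPM against 71.4 CPM, but ESRP1, a splicing regulator, 65.6, 97.0 and 90.5 CPM against 37.2 CPM. CDH1 (E-cadherin) read 556, 834 and 614 CPM in them against a median of 449 CPM in the other 18, KRT8 (a keratin) 3023, 2006 and 4002 CPM against 1735 CPM, and EPCAM, an adhesion molecule, 481, 361 and 697 CPM against 703 CPM. Summed over 7 macrophage markers, all of them detected, they had 2823, 2044 and 2058 CPM, where the other 18 ranged from 273 to 1211 CPM. Results that rest on these piglets are given with and without them. No mean or test takes the 3 as a group against the rest, since they differ in the outcome itself. The calls of the slopes on SI over 21 piglets nevertheless rest on that contrast.

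HNF4A (ENSSSCG00000007371) and HNF4G (ENSSSCG00000034242), the paired nuclear receptors, were both abundant in most piglets. HNF4A ran from 62.9 CPM in starch 3 over a median of 116 to 159 CPM in starch 4 among the starch piglets. In the control piglets it ran from 47.6 CPM in control 8 over a median of 126 to 146 CPM in control 2. The diets overlapped, and the lowest piglet of each was one of the 3 with little SI. HNF4G varied more, from 19.1 CPM in starch 3 over 178 to 325 CPM in starch 5 on starch, and from 12.4 CPM in control 8 over 152 to 254 CPM in control 10 on the control diet. HNF4A averaged 116 ± 27.1 CPM in starch and 112 ± 35.9 CPM in control piglets (SD, n = 11 and 10), and HNF4G averaged 167 ± 79.2 CPM in starch and 139 ± 79.3 CPM in control piglets. Neither difference exceeded the spread between piglets.

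Set per length, so that the genes can be compared, HNF4G exceeded HNF4A in most piglets. The ratio of their FPKM values (fragments per kilobase, scaled to depth) averaged 1.46 ± 0.60 in starch piglets and was above 1 in 10 of 11. In control piglets it averaged 1.21 ± 0.56 and was above 1 in 6 of 10. The lowest ratios were 0.34 in starch 3 and 0.29 in control 8, so HNF4G was short there also relative to its partner. Of the 2 HNF4A transcripts, the one with a coding length of 1359 bases took 75.8 ± 3.8% of the gene's count in starch and 77.4 ± 8.0% in control piglets, and reached 95.7% in control 5. These shares are the authors' estimates, since the transcripts overlap. The 5 HNF4G transcripts were split too unevenly between piglets to read, the main one, of 1389 bases, taking 0 to 81.2%.

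GATA4 (ENSSSCG00000022383) and GATA6 (ENSSSCG00000003702) were unequal throughout. GATA4 was the scarcest member, with 34 to 123 counts in any piglet. It ran from 3.72 CPM in starch 9 over a median of 8.05 to 16.7 CPM in starch 6 on starch, and from 3.78 CPM in control 5 over 7.13 to 13.6 CPM in control 2 on the control diet. At the lowest count the counting error was 17.2%, which is below the spread between piglets, 46.6% of the mean on starch and 40.7% on the control diet. GATA6 ran from 21.1 CPM in starch 3 over 67.4 to 114 CPM in starch 5 on starch, and from 25.2 CPM in control 5 over 80.6 to 96.8 CPM in control 10 on the control diet. Both genes overlapped between the diets. GATA4 averaged 9.32 ± 4.34 CPM in starch and 7.69 ± 3.13 CPM in control piglets, and GATA6 averaged 71.2 ± 26.7 CPM in starch and 72.7 ± 26.1 CPM in control piglets. Per length GATA6 was above GATA4 in every piglet, by 6.40 ± 3.21 times in starch and 7.29 ± 2.76 times in control piglets.

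CREB3L3 (ENSSSCG00000013501) had the widest range of the 8. It ran from 3.48 CPM in starch 3 over a median of 218 to 426 CPM in starch 2 among starch piglets, and from 7.07 CPM in control 5 over 271 to 678 CPM in control 2 among control piglets. Those extremes lie 195-fold apart, and the 3 piglets with little SI alone accounted for the low end. Within the other 18 the lowest was control 9 at 124 CPM and the range was 5.45-fold. The mean was 219.7 ± 105 CPM in starch and 299 ± 237 CPM in control piglets. In control 8 the usual transcript, of 1362 bases, took 69.2% of the 3-transcript total, and in starch 3 and control 5 it took 0%, while its median over piglets was 98.0%. Starch 3 had 30 counts, control 5 had 71 and control 8 had 63 in all, so those shares are poorly measured.

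HNF4G and MAF (ENSSSCG00000040607) came next in fold range. It ran from 29.1 CPM in starch 3 over a median of 132 to 259.9 CPM in starch 8 on starch, and from 21.5 CPM in control 8 over 232 to 501 CPM in control 2 on the control diet. Only 3 of 11 starch piglets were above the control median, and 8 of 10 control piglets were above the starch median, but the groups overlapped over most of their range. The mean was 151 ± 79.5 CPM in starch and 226 ± 147 CPM in control piglets. One of its 3 transcripts, of 1155 bases, took 99.9 ± 0.20% of the count in starch and 99.2 ± 1.16% in control piglets.

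The Krüppel-like factors KLF4 (ENSSSCG00000005437) and KLF5 (ENSSSCG00000035101) had the smallest fold ranges over the 21 piglets and were not low in the 3 with little SI. KLF4 ran from 31.1 CPM in starch 11 over a median of 46.3 to 90.3 CPM in starch 4 on starch, and from 29.0 CPM in control 4 over 46.8 to 67.6 CPM in control 5 on the control diet. KLF5 ran from 135 CPM in starch 9 over 197 to 262 CPM in starch 4 on starch, and from 138 CPM in control 7 over 165 to 239 CPM in control 10 on the control diet. The lowest and highest piglets lay 1.94-fold apart for KLF5 and 3.12-fold apart for KLF4. KLF4 averaged 51.1 ± 17.1 CPM in starch and 48.2 ± 10.9 CPM in control piglets, and KLF5 averaged 193 ± 43.8 CPM in starch and 183 ± 38.7 CPM in control piglets.

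**Figure D1:**
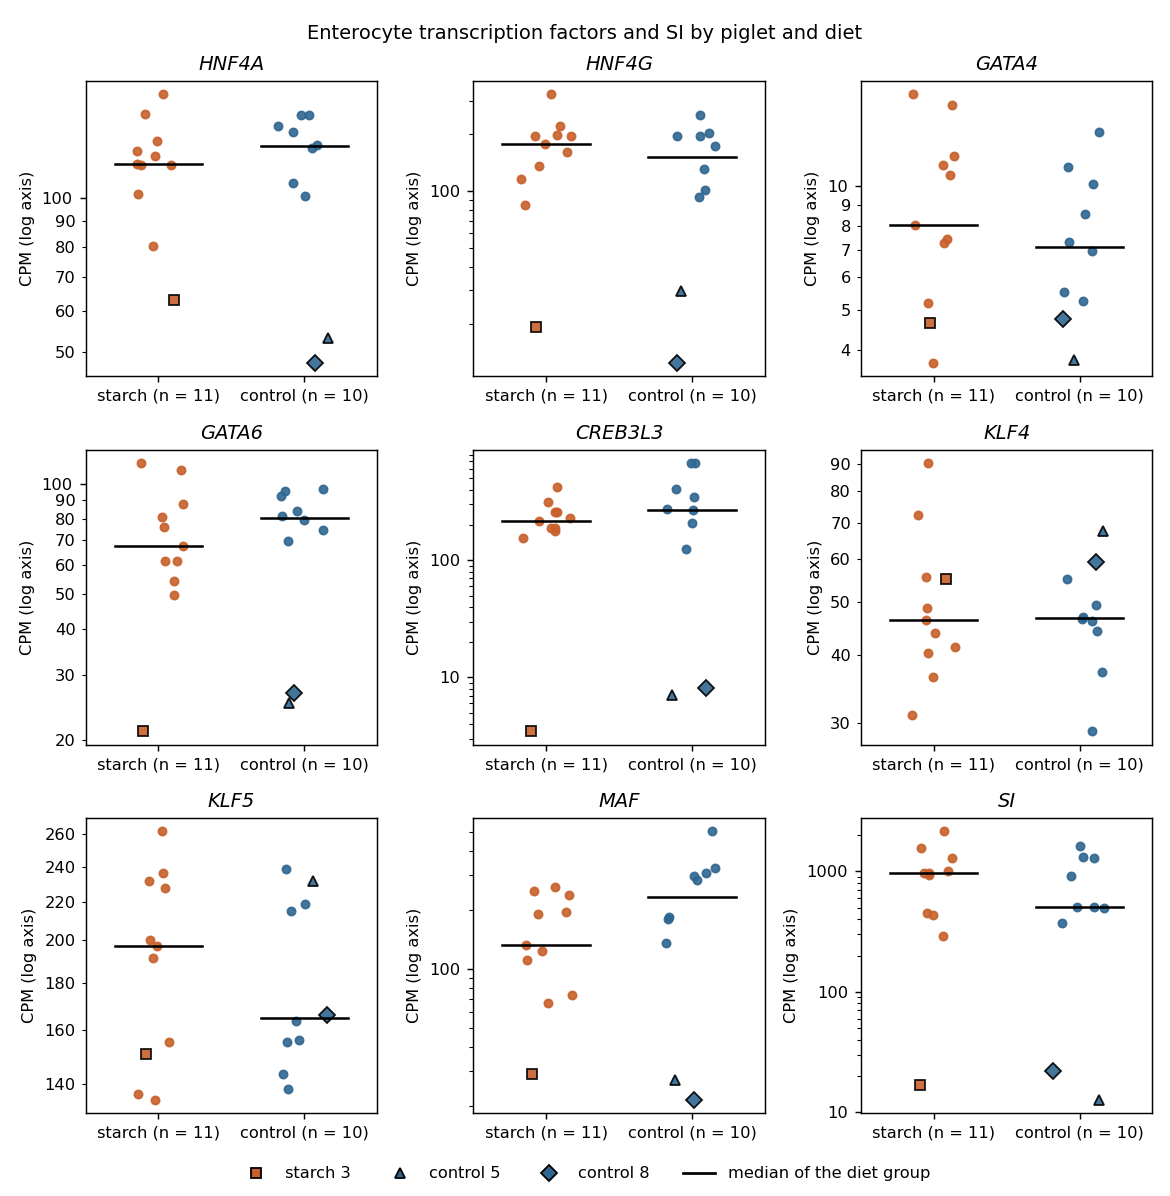
Level of each of the 8 transcription factors and of SI in CPM (log axis) in starch (orange, n = 11) and control piglets (blue, n = 10), with 1 point per piglet and a line at the median of each diet. The square (starch 3), triangle (control 5) and diamond (control 8) lie at the bottom for SI, CREB3L3, HNF4G, MAF, GATA6 and HNF4A and within the other points for KLF4 and KLF5.

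Ordered by level per length, MAF stood first with a median of 175 FPKM, followed by CREB3L3 at 169, KLF5 at 141, HNF4G at 127, HNF4A at 90.6, GATA6 at 42.8, KLF4 at 33.2 and GATA4 at 5.82 FPKM. Of the 7 steps in that order, those from HNF4A to GATA6 and from KLF4 to GATA4 held in 21 of 21 piglets. The 4 leading genes did not differ from their neighbours beyond the spread between piglets. MAF was above CREB3L3 in 12 of 21 piglets, CREB3L3 above KLF5 in 15 and KLF5 above HNF4G in 12. HNF4G was above HNF4A in 16 of 21 piglets, and GATA6 above KLF4 in 16 of 21. Without the 3 piglets with little SI those last counts were 16 of 18 each. In starch 3, control 5 and control 8 KLF4 was therefore above GATA6. Over the 18 piglets the first places turned, with a median of 203 FPKM for CREB3L3 and 186 FPKM for MAF, and MAF was above CREB3L3 in 9 of 18.

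**Figure D2:**
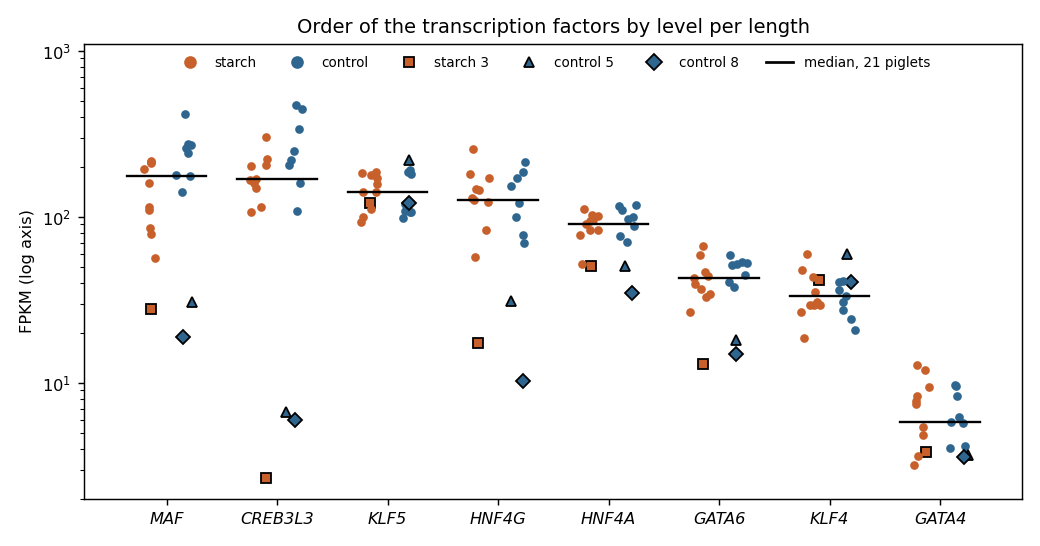
FPKM (log axis) of the 8 transcription factors, ordered by the median over 21 piglets (black line), with starch piglets in orange left of control piglets in blue. Points of MAF, CREB3L3, KLF5 and HNF4G cover each other's range, and GATA4 lies below the other 7, at a median of 5.82 FPKM; CREB3L3 falls below 10 FPKM in the 3 outlined piglets.

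The design compares the intestine of piglets on the 2 diets, and for none of the 8 factors did the difference between the diets exceed the spread between piglets. Diets were compared by edgeR's quasi-likelihood F test with Benjamini-Hochberg adjustment, and log2 fold changes are starch minus control. It called 0 of 13127 genes, a background of 0%, with 174 genes at an unadjusted p below 0.05, and every member had an adjusted p of 0.9998. DESeq2 called 0 genes, with 191 at an unadjusted p below 0.05, and voom with sample quality weights called 0, with 268. Estimates were above 0 for 5 members and below 0 for 3. What the data allow therefore lies in the intervals.

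For KLF5 the 95% interval of the log2 fold change was narrow, 0.08 with limits of -0.22 and 0.38. KLF4 had 0.08 (-0.27 to 0.44) and HNF4A 0.04 (-0.36 to 0.44). GATA6 had -0.03 (-0.57 to 0.51) and GATA4 0.28 (-0.28 to 0.84). The other 3 were estimated less closely. HNF4G had 0.26 (-0.60 to 1.12), MAF -0.58 (-1.49 to 0.33) and CREB3L3 -0.45 (-1.70 to 0.81), and SI itself had 0.37 (-0.95 to 1.70).

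MAF and CREB3L3 had the estimates farthest below 0, and both moved when the 3 piglets with little SI were left out. Over the other 18 piglets MAF had a log2 fold change of -0.75 (unadjusted p = 0.0137) and CREB3L3 one of -0.62 (unadjusted p = 0.0346). The adjusted p was 0.9994 for both in edgeR's quasi-likelihood test, which called 0 of 13127 genes (0%), with 381 at an unadjusted p below 0.05. Both also moved when the smooth muscle score, the mean of 7 marker genes, was added to the fit, to -0.10 for MAF and 0.35 for CREB3L3, so the direction for CREB3L3 turns. GATA6 likewise had 0.15 in that fit. HNF4A turned to -0.08 over the 18 piglets.

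**Figure D3:**
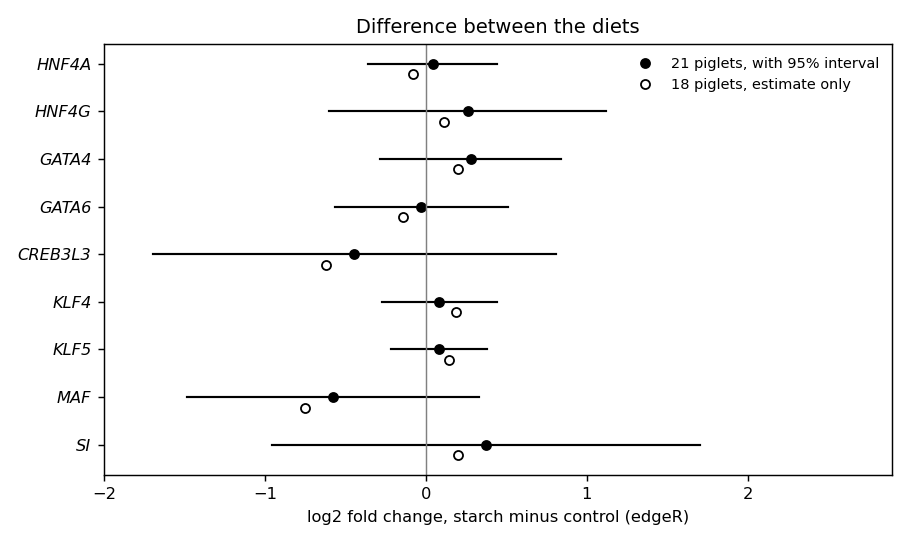
Log2 fold change of each transcription factor and SI, starch minus control, over 21 piglets (filled points, bars are 95% intervals) and over the 18 piglets without starch 3, control 5 and control 8 (open points). All 9 intervals include 0; KLF5 has the narrowest and SI the widest.

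Against SI, 6 of the 8 factors were higher where SI was higher when all 21 piglets were taken. The slope, in log2 units of the factor per log2 unit of SI with diet in the model, was 0.87 ± 0.14 for CREB3L3 (SE; adjusted p = 4.86e-05, edgeR's quasi-likelihood test). It was 0.51 ± 0.08 for MAF, 0.48 ± 0.08 for HNF4G, 0.29 ± 0.04 for GATA6, 0.22 ± 0.05 for GATA4 and 0.18 ± 0.03 for HNF4A. KLF4, with -0.08 ± 0.04 (adjusted p = 0.115), and KLF5, with 0.01 ± 0.03 (adjusted p = 0.831), did not pass. The background was high. Of 13126 genes 35.1% passed, 17.3% with a positive and 17.8% with a negative slope, so a slope that passed was common among all genes.

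The calls of those slopes rest on the 3 piglets with little SI. Without them all 6 were lost, the slope being smaller for CREB3L3, MAF, HNF4G, GATA6 and HNF4A and larger for GATA4. SI values fell into separate clusters, with a gap of 3.70 log2 units in a range of 7.36, so no correlation with SI is given over all 21. In starch 3, control 5 and control 8 CREB3L3 stood at 1.34%, 2.73% and 3.12% of the median of the other 18 piglets. HNF4G stood at 10.3%, 16.0% and 6.68%, MAF at 15.2%, 14.1% and 11.2%, GATA6 at 26.2%, 31.3% and 33.3%, and HNF4A at 50.6%, 42.7% and 38.3%. For these 5 genes none of the 3 piglets reached the lowest of the other 18. GATA4 was different, with 4.64, 3.78 and 4.74 CPM in the 3 piglets, since starch 9, which had 451 CPM of SI, was lower at 3.72 CPM. KLF4 stood at 119%, 146% and 128% of the median, and KLF5 at 77.7%, 119% and 85.5%.

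Markers of other cells moved with SI too. All 7 macrophage markers had a negative slope that passed over 21 piglets, for example -0.72 for CD163, where 17.8% of all genes did. So did 4 of 7 smooth muscle, 3 of 5 goblet, 3 of 6 fibroblast and 2 of 6 crypt and stem markers. The count was 3 of 10 for epithelial, 1 of 5 for T cell, 1 of 4 for endothelial and 0 of 4 for B cell markers. A positive slope passed for 2 of the epithelial and 1 of the crypt and stem markers. Summed smooth muscle markers read 12308, 11602 and 16791 CPM in starch 3, control 5 and control 8, and 4391 to 11299 CPM in the other 18. Their part in the slopes of the transcription factors was not tested. The epithelial score of the 3 piglets was 0.39, 0.25 and 0.70, above the mean of 0 over all piglets, and the keratin KRT18, 1 of its 10 genes, read 531, 476 and 896 CPM in them and 15.6 to 89.2 CPM in the other 18. CDX2, the intestinal homeobox factor, was low in the same 3 piglets, with 59.5, 28.2 and 55.5 CPM against 67.7 CPM or more in the rest.

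**Figure D4:**
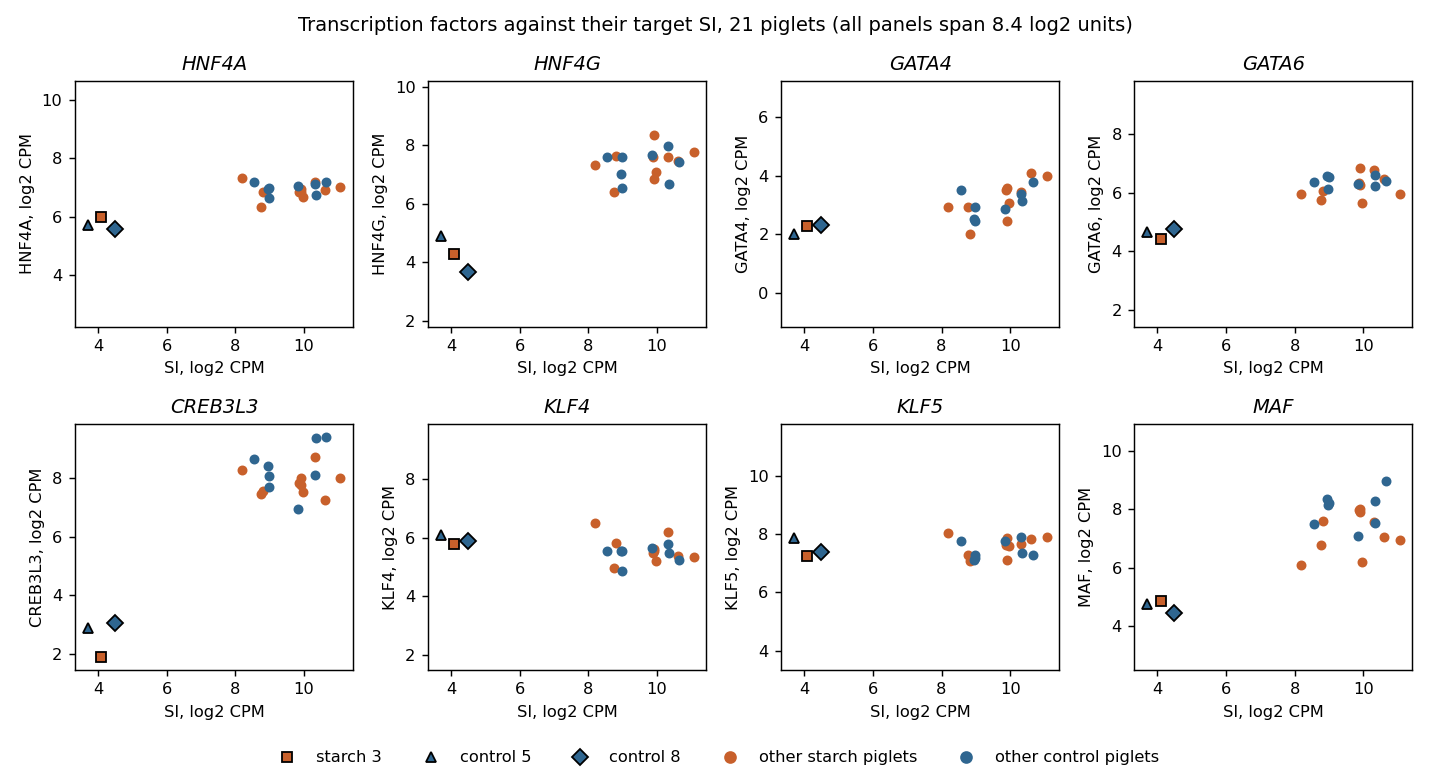
Log2 CPM of each transcription factor (y) against log2 CPM of SI (x) in 21 piglets, starch in orange and control in blue, each panel spanning the same number of log2 units. Outlined symbols are starch 3, control 5 and control 8, which lie 3.70 log2 units of SI below the next piglet; CREB3L3 drops most there, and KLF4 and KLF5 do not drop.

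Within the other 18 piglets none of the slopes passed. No gene of 13126 passed the edgeR quasi-likelihood test for the slope on SI (0%), with 888 (6.77%) at an unadjusted p below 0.05. GATA4 had the smallest p of the 8. Its slope was 0.41 (95% interval 0.14 to 0.68, unadjusted p = 0.00536, adjusted p = 0.473), and 0.43 with the epithelial score in the model. The highest GATA4 levels, 16.7 CPM in starch 6 and 15.8 CPM in starch 7, belonged to the piglets with 1553 and 2140.3 CPM of SI. The remaining slopes were 0.21 for MAF, 0.18 for CREB3L3, 0.16 for HNF4G, 0.11 for GATA6, 0.06 for KLF5, 0.01 for HNF4A and -0.13 for KLF4, all with an adjusted p of at least 0.83. Of the 8 members 7 were positive, where 49.3% of all genes were.

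As a correlation, GATA4 had Pearson's r = 0.64 with SI (two-sided permutation p = 0.0050) and Spearman's rho = 0.63 (permutation p = 0.0067) over 18 piglets. After Benjamini-Hochberg adjustment over all 13126 genes the permutation p was 0.751, and 0% of genes passed. Within the diets r was 0.70 over 10 starch piglets and 0.51 over 8 control piglets, and without the 2 piglets farthest from the median SI, starch 4 and control 3, it was 0.81. The next were HNF4G with r = 0.28, KLF5 with 0.24, GATA6 with 0.23, MAF with 0.17, CREB3L3 with 0.14, HNF4A with 0.09 and KLF4 with -0.17, none with a permutation p below 0.25. Starch 4 and control 3 had the least SI of the 18 but high KLF5 and HNF4A, and without them r was 0.67 for KLF5 and 0.51 for HNF4A. CREB3L3, which followed SI so steeply over 21 piglets, did not do so among the 18. Control 9 had its lowest level, 124 CPM, with 917 CPM of SI, and control 3 had 407 CPM with 376 CPM of SI.

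Among themselves the 8 factors did not form a single group over the 18 piglets. Of 28 pairs 21 had a positive r, with a median of 0.31. The median r over all genes ran from -0.04 with MAF to 0.02 with KLF4. By permutation test 9 pairs had an unadjusted p below 0.05, and the share of all genes that did was not computed. After adjustment over all genes 0 pairs passed, the smallest adjusted p being 0.0549. Of all genes 29.0% passed with HNF4G, 14.8% with GATA6, 8.02% with MAF and 0.107% with CREB3L3. With HNF4A, GATA4, KLF4 and KLF5 0% passed. The highest r was that of GATA4 with KLF5, 0.65 (permutation p = 0.00411; Spearman's rho = 0.64), followed by GATA6 with MAF at 0.58, HNF4A with KLF4 at 0.57 and HNF4G with KLF5 at 0.56. Without the 2 piglets farthest in the first-named gene r was 0.56, 0.38, 0.26 and 0.52 for these 4 pairs. Without the 2 farthest in the second-named gene it was 0.51, 0.58, 0.58 and 0.62. The HNF4 pair had r = 0.48 and the GATA pair 0.26. KLF5 and MAF ran in opposite directions, with r = -0.57 (permutation p = 0.0134), -0.40 within starch and -0.81 within control piglets. Some pairs differed by diet. HNF4A and KLF4 had r = 0.87 over 10 starch piglets and -0.01 over 8 control piglets, and GATA6 and MAF had 0.70 and 0.01, but the difference between the diets was not tested.

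The factors were also compared with scores of cell type markers. A score is the mean log2 CPM of a marker list, centred over piglets, and p-values are two-sided permutation values adjusted over all genes. CREB3L3 rose with the enterocyte score, from which SI was left out (r = 0.79, adjusted p = 0.0156, n = 18), as did MAF (r = 0.70, adjusted p = 0.0405, n = 18), where 5.05% of all genes passed in either direction. Spearman's rho was 0.72 for CREB3L3 and 0.61 for MAF, with adjusted p = 0.0537 and 0.106 in the same permutation test. Within the diets r was 0.35 in starch and 0.97 in control piglets for CREB3L3, and 0.54 and 0.77 for MAF. CREB3L3 fell with the crypt and stem cell score (1 of 8 factors, r = -0.63, permutation adjusted p = 0.0481, background 10.6%), and MAF had -0.61 there (adjusted p = 0.0604). Spearman's rho for CREB3L3 and the crypt and stem score was -0.59 (permutation adjusted p = 0.0910). Without the 2 piglets farthest from the median score, r with the enterocyte score was 0.58 for CREB3L3 and 0.57 for MAF.

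Other scores gave calls at shares near those of all genes. HNF4G rose with the endothelial score (r = 0.76, permutation adjusted p = 0.00427), and so did KLF5 (r = 0.59, adjusted p = 0.0396), 2 of 8 factors, where 29.6% of all genes passed. HNF4G fell with the goblet score (r = -0.66, permutation adjusted p = 0.0482, background 6.93%). KLF5 had -0.64 there. GATA6 fell with the macrophage score (1 of 8 factors, r = -0.72, permutation adjusted p = 0.0100, background 21.3%), with -0.83 in starch and -0.67 in control piglets. GATA4, HNF4A and KLF4 passed for none of these scores. No factor passed for the epithelial (background 12.0%), T cell (5.92%), B cell (1.66%), smooth muscle (1.19%) or fibroblast score (1.09%). Spearman's rho was 0.73 for HNF4G and 0.59 for KLF5 with the endothelial score, -0.64 for HNF4G with the goblet score (permutation adjusted p = 0.0774) and -0.77 for GATA6 with the macrophage score. Without the 2 piglets farthest from each median score r was 0.58, 0.54, -0.53 and -0.84 for these 4 relations. The part of cell composition in them was not tested.

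**Figure D5:**
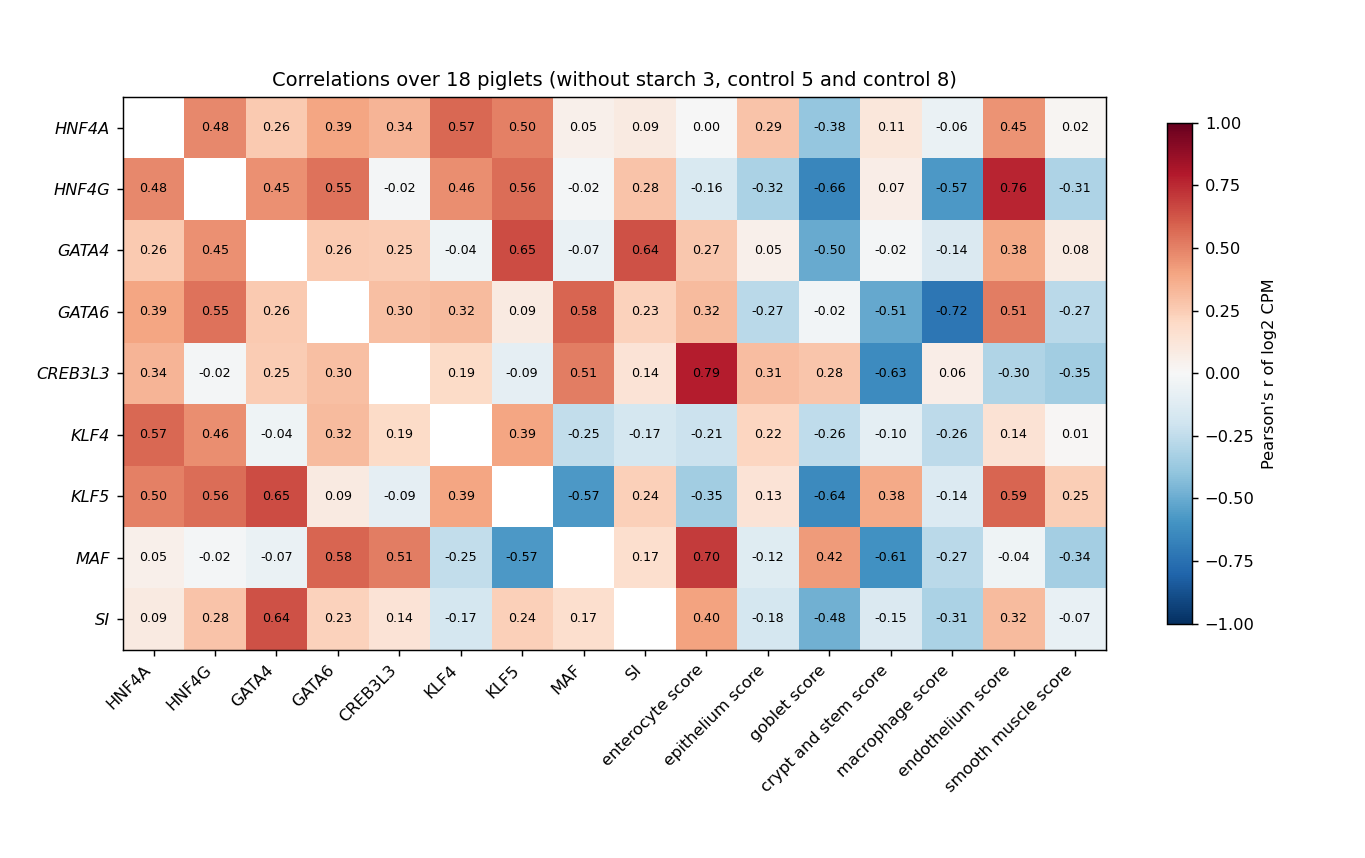
Pearson's r of log2 CPM over 18 piglets between the 8 transcription factors, SI and 7 marker scores. CREB3L3 and MAF share a high r with the enterocyte score (0.79 and 0.70) and a low one with the crypt and stem score, HNF4G is highest with the endothelial score (0.76), and GATA4 is the factor highest with SI (0.64).

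Known targets of these factors were examined gene by gene. Of 39 enterocyte genes recorded as HNF4, GATA4 or CREB3L3 targets in mouse or human, SI left out, 32 were tested. For diet 0 passed in edgeR's quasi-likelihood test (background 0%), with 12 above and 20 below 0 and a median log2 fold change of -0.05, where all genes had a median of 0.004. MGAM, the other starch-digesting disaccharidase, read 231 ± 222 CPM in starch and 105 ± 98.6 CPM in control piglets (log2 fold change 1.14, unadjusted p = 0.0898). FABP2, the intestinal fatty acid binding protein, read 599 ± 389 CPM in starch and 1272 ± 1216 CPM in control piglets (-1.09). G6PC1, the last enzyme of glucose release, had -0.67 and CPT1A, which carries fatty acids into mitochondria, had -0.23.

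On SI 28 of the 32 targets had a positive slope that passed over 21 piglets and 0 a negative one, against backgrounds of 17.3% and 17.8%. These include ABCG5, a sterol exporter (slope 0.93), the sodium-glucose carrier SLC5A1 (0.65), the vitamin B12 receptor CUBN (1.19) and the villus actin-bundling protein VIL1 (0.46). Over the 18 piglets 0 passed, 27 of 32 were positive, the median slope was 0.30 and 10 had an unadjusted p below 0.05, where all genes had a median of -0.002. Of all genes 49.3% were positive and 6.77% had an unadjusted p below 0.05 in the same edgeR test.

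Correlations with these genes were computed over the 18 piglets for every factor, although the list was drawn up for HNF4, GATA4 and CREB3L3 and not for MAF or GATA6. CREB3L3 passed with 1 of 32. It went with APOA4, the apolipoprotein of chylomicrons that it drives in the mouse, at r = 0.89 (two-sided permutation test, adjusted p = 0.0469), 0.89 within starch and 0.89 within control piglets. Spearman's rho was 0.90 (permutation adjusted p = 0.0525). Without the 2 piglets farthest in CREB3L3 r was 0.85. This stands against a background of 14 genes, 0.107% of those tested. APOA4 is also one of the 5 markers in the enterocyte score, with FABP2, ANPEP, APOB and RBP2. All 5 are among the 32 targets, so results for the score and for the targets are not separate. In starch 3, control 5 and control 8, the piglets with the least CREB3L3, APOA4 was at 0.696, 16.4 and 1.41 CPM, where the other 18 had at least 211 CPM.

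MAF passed with 6 of the 32 targets (background 8.02%), all positive in the permutation test. Among them were DGAT1, the last enzyme of triglyceride synthesis (r = 0.83, adjusted p = 0.00458), APOA1, an apolipoprotein (r = 0.81, adjusted p = 0.00556), and MEP1B, a brush-border protease (r = 0.80, adjusted p = 0.00556). Spearman's rho was 0.79, 0.76 and 0.74 for these 3, and r without the 2 piglets farthest in MAF was 0.79, 0.73 and 0.81. GATA6 passed with 5 positive and 1 negative of the 32, a share near its background of 14.8%. The highest was MALRD1, which in the mouse acts on the ileal hormone that restrains bile acid synthesis (r = 0.83, permutation adjusted p = 0.00320), and the negative one was SLC51A, a subunit of the basolateral bile acid exporter (r = -0.67, adjusted p = 0.0265). Their rho was 0.83 and -0.74. HNF4G passed with no target in the positive direction and with 3 of the 32 in the negative one. That share lay below its background of 29.0%. The 3 were FABP6, SLC51A and SLC51B, all of bile acid transport (r = -0.60, -0.62 and -0.67, permutation test). By Spearman's rho SLC51B passed (-0.60, permutation adjusted p = 0.0430), and FABP6 (-0.46) and SLC51A (-0.44) did not. HNF4A, GATA4, KLF4 and KLF5 passed with 0 of the 32, and 0% of all genes passed for each of them.

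Of 32 other transcription factors of the intestinal epithelium 28 were tested. For diet 0 passed (13 above and 15 below 0). The smallest unadjusted p, 0.0832, was that of the goblet cell factor SPDEF, with 11.5 ± 6.62 CPM in starch and 16.8 ± 10.1 CPM in control piglets. BCL6, a repressor, read 39.9 ± 36.8 CPM in starch and 24.6 ± 12.1 CPM in control piglets. On SI 11 rose and 7 fell of 28 over 21 piglets, where 17.3% and 17.8% of all genes did. Over the 18 piglets 0 passed, 11 of 28 were positive, where 49.3% of all genes were, and the median slope was -0.04. Over 21 piglets the nuclear receptors NR1I2 (0.33), VDR (0.30), ESRRA (0.25) and NR1I3 (1.09) had the smallest p among those that rose. Over the 18 piglets MAF went with NR1I3 (r = 0.87, permutation adjusted p = 0.00365) and against EHF, an epithelial ETS factor (r = -0.80, adjusted p = 0.00629). GATA6 went with PRDM1, which in the mouse holds back the adult programme before weaning (r = 0.80, permutation adjusted p = 0.00563). HNF4G went with NR5A2, a nuclear receptor of crypt cells in the mouse (r = 0.84, permutation adjusted p = 0.00067). In that permutation test HNF4G passed with 5 positive and 3 negative of the 28, a share near its background of 29.0%. MAF passed with 6 positive and 1 negative (background 8.02%), and GATA6 with 5 positive and 3 negative (background 14.8%). Spearman's rho was 0.79 for MAF with NR1I3, -0.85 for MAF with EHF, 0.77 for GATA6 with PRDM1 and 0.68 for HNF4G with NR5A2.

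Of 26 partners and controllers 25 were tested, among them co-activators, MBTPS1, a protease that frees CREB3L3, and members of the BMP, WNT and YAP pathways. For diet 0 passed (13 above and 12 below 0), the smallest unadjusted p being 0.0849 for NR2F1, a repressor that competes with HNF4A for its sites. On SI 5 rose and 3 fell of 25 over 21 piglets, near the 17.3% and 17.8% of all genes, and 0 passed over 18. NR0B2, a co-repressor induced by bile acids, had the steepest slope of those named, 0.93, and was at 0, 0.398 and 0 CPM in starch 3, control 5 and control 8. HNF4G was the member most often tied to this list over the 18 piglets, with 12 positive and 1 negative of 25 against its background of 29.0%. SMAD4, which carries the BMP signal, had r = 0.88, YAP1 had 0.87 and NCOA2, a nuclear receptor co-activator, had 0.85 (permutation adjusted p = 0.00067, 0.00067 and 0.000881), with a Spearman's rho of 0.83, 0.81 and 0.85. GATA6 passed with 3 of 25 (background 14.8%), ID2 first (r = 0.85), and MAF with 2 of 25 (background 8.02%), counts no higher than among all genes.

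The genes whose pattern was most like each factor were taken from the 3 with the highest r of log2 CPM over 21 piglets, and r over the 18 piglets is given beside it as a description. CREB3L3 was most like RAB17 (0.98 over 21 piglets, 0.77 over 18), ABCG8 and TMC5, and HNF4G most like CLIC5 (0.98 and 0.85), SLC6A6 and AREL1. GATA6 was like ALDH1B1 (0.97 and 0.85) and HHLA2, and MAF most like AKR7A2 (0.96 and 0.92), FAAH and GLYCTK. HNF4A was most like BTNL2 (0.93 and 0.69), SOX13 and ANXA4. KLF4 was most like GFPT1 (0.83 and 0.82), MOBKL3 and DNAJC3, KLF5 most like WRN (0.79 and 0.77), MAGI1 and ZMYND11, and GATA4 most like DDHD2 (0.75 and 0.65), KMT5B and MTARC2.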

How the data were processed

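Total RNA of distal small intestine was extracted with miRNAeasy kits, per the labels' protocols. The authors deposited 1 table per piglet with, per the file headers, transcript and gene identifiers, a coding length (99.96 to 99.97% of the lengths were multiples of 3), an expected count (an estimated count, not normalised) and FPKM, which the authors had scaled by transcript length and library size. HISAT and DESeq2 are named in the submitters' processing notes. Counting program, strand setting and genome build were not given in the sources used here. Symbols came from a table of pig gene names, which matched 14276 of 18661 genes (76.5%). No reference sequences were used. None of the 8 genes, nor SI, shared identical counts with another gene.

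Expected counts were summed per gene and rounded. Piglets were grouped by title and design text, and p-values measure the spread between piglets. edgeR 4.0.16 in R 4.3.3 (quasi-likelihood F test, TMM scaling, filterByExpr with a minimum count of 10 and total of 15, Benjamini-Hochberg threshold 0.05) tested starch minus control and, with diet in the model, the slope on log2 CPM of SI (prior count 2). FPKM values were summed per gene, and served to compare levels between genes. Correlations used log2 CPM and two-sided permutation tests with 100000 resamples, adjusted over all tested genes. Relations were computed for the 8 factors, SI and 10 marker scores. The correlation with SI was to be restricted to 1 cluster if the largest gap in SI exceeded 33.3% of its range, and it took 50.2%. The fits were first tested on simulated counts.

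The factors, gene lists and tests were chosen with earlier results of these data known. Named genes are the factors and SI, the 3 genes most like each factor, and up to 4 genes per list with the smallest p for diet and for SI. Genes named for their correlation with a factor, and markers given for single piglets, were picked once their values had been seen. Alternatives were DESeq2 1.42.0, voom with sample quality weights and log2(FPKM + 0.5), log2(FPKM + 0.1) or log2(FPKM + 1) in limma 3.58.1, kept where 10 piglets had an FPKM of 1 or more. Others were RLE or upper-quartile scaling, other filters, the replicate number as a block, marker scores as covariates, and leaving out each piglet or the 3 that stood apart. Some genes are not reported here.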

Additional observations from a re-analysis of the deposited data

How the results depend on the processing

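For diet 0 genes passed in every alternative, the replicate block (188 genes at an unadjusted p below 0.05, and 203 without the block term) and leaving out each piglet in turn (0 to 0, with 118 to 299) included. The labels do not say whether equal replicate numbers pair piglets. Same-numbered deviations correlated between -0.34 and 0.48, above 0.1 in 4 of 10 pairs. Such correlations cannot decide whether the numbers carry a pairing. Several diet estimates near 0 changed sign. HNF4A had -0.0090 with voom, -0.0803 over the 18 piglets and -0.0483 to 0.106 leaving out 1 piglet. GATA6 had 0.0060 over piglets 1 to 10 without the block, 0.152 with the smooth muscle score and -0.129 to 0.0701 leaving out 1 piglet, CREB3L3 had 0.0134 with the replicate block and 0.349 with the smooth muscle score, and KLF4 had -0.0311 to 0.144 leaving out 1 piglet. Of 13126 genes 4611 passed for the slope on SI, 7361 with voom, 0 without control 5, control 8 and starch 3, and 3117 to 4745 leaving out 1 piglet. The slope of KLF5 was -0.0030 with upper-quartile scaling and -0.0121 to 0.0488 leaving out 1 piglet; the other 7 kept their sign in all alternatives over 21 piglets. Over 18 piglets, alternatives added after seeing the data gave 0 to 9 genes leaving out 1 piglet, 9 without control 7 and 1 without starch 6, slopes of -0.0267 to 0.114 for HNF4A and -0.176 to 0.0480 for KLF4, which was positive without starch 4, and 0.34 to 0.53 for GATA4. The cause of these shifts was not tested. With 34 to 123 counts GATA4 is the member whose depth limits it most.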
